A study of Mus musculus with 32 samples.

Results

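The glucose transporters of the kidney tubule were followed through 4 genes, the sodium-coupled carriers Slc5a1 (SGLT1) and Slc5a2 (SGLT2) and the facilitative carriers Slc2a1 (GLUT1) and Slc2a2 (GLUT2), out of 22180 genes measured. The genes were taken by name, from array features that named exactly 1 symbol, and for Slc2a1, which had 2 such features, the one with the higher mean was used. Whole kidney RNA came from male mice of strain 129 that were either Col4a3-/- (KO) or wild-type Col4a3+/+ littermates (WT), aged 4 or 7 weeks. Each of the 4 groups held 8 mice with 1 Affymetrix Mouse Gene 2.0 ST array per mouse, 32 arrays in all. Col4a3 encodes a chain of the collagen network of the glomerular basement membrane, and its loss in every cell gives a mouse model of Alport syndrome with progressive kidney disease. The labels name no treatment and do not say which part of Col4a3 was deleted. Values are log2 signals after robust multi-array averaging (RMA), so a difference of 1 is a doubling of signal.

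Glucose filtered by the glomerulus is taken back almost completely by the proximal tubule. SGLT2, in the brush border of the early proximal tubule, carries most of it into the cell with sodium, and SGLT1, further along in the late proximal tubule, takes up what remains. The sugar leaves through the basolateral membrane by facilitative diffusion, through GLUT2 mainly in the early segment and through GLUT1 in the late segment and more distal cells, and GLUT1 is also the general glucose carrier of many dividing or glycolytic cells. The sodium gradient for the apical step is kept by the sodium pump.

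Labels and tissue were checked before the transporters were compared. Col4a3 was lower in every KO mouse than in every WT mouse of its age, by 0.99 ± 0.13 (limma estimate ± SE, n = 8 per group, adjusted p = 8.75e-05) at 4 weeks and by 1.65 ± 0.13 (adjusted p = 3.98e-12) at 7 weeks. Per-mouse means of 11 early proximal tubule genes ran from 11.24 to 12.25, against array medians of 5.606 to 5.793. Pairwise correlations within a group ran from 0.965 to 0.995. In the leading principal component, which held 37.3% of the variance, the KO mice of 7 weeks parted into 2 sets of 4. At 4 weeks KO mouse 4 and WT mouse 8 each stood apart from the other 7 of their group on that component, by gaps of 0.483 and 0.495 of the group's range. KO mice 4 and 5 of 4 weeks had the lowest array weights, 0.337 and 0.388. No scan date or other batch was used here, and the number of arrays limits the precision of every estimate. In limma a p-value sets a difference against the spread between mice within groups, pooled over the 4 groups.

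At 7 weeks the sodium-coupled carriers moved in opposite directions in KO kidneys. Slc5a1 rose 1.58-fold and Slc5a2 fell 1.88-fold. Slc2a2 fell 1.27-fold, while Slc2a1 stood at 0.13 ± 0.12 and did not pass. With limma, fitted over all 22180 genes, 3 of the 4 genes passed at an adjusted p below 0.05, 1 higher and 2 lower, where 32.3% of all genes passed, 15.6% higher and 16.7% lower. The array median over the genes tested was 0.114 higher in KO than in WT mice at this age. Relative to that median 10892 genes passed, 23.6% of them higher against 48.4% as deposited, and the 4 differences became 0.54 for Slc5a1, -1.025 for Slc5a2, 0.01 for Slc2a1 and -0.46 for Slc2a2, with the same 3 genes past the threshold.

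**Figure D1:**
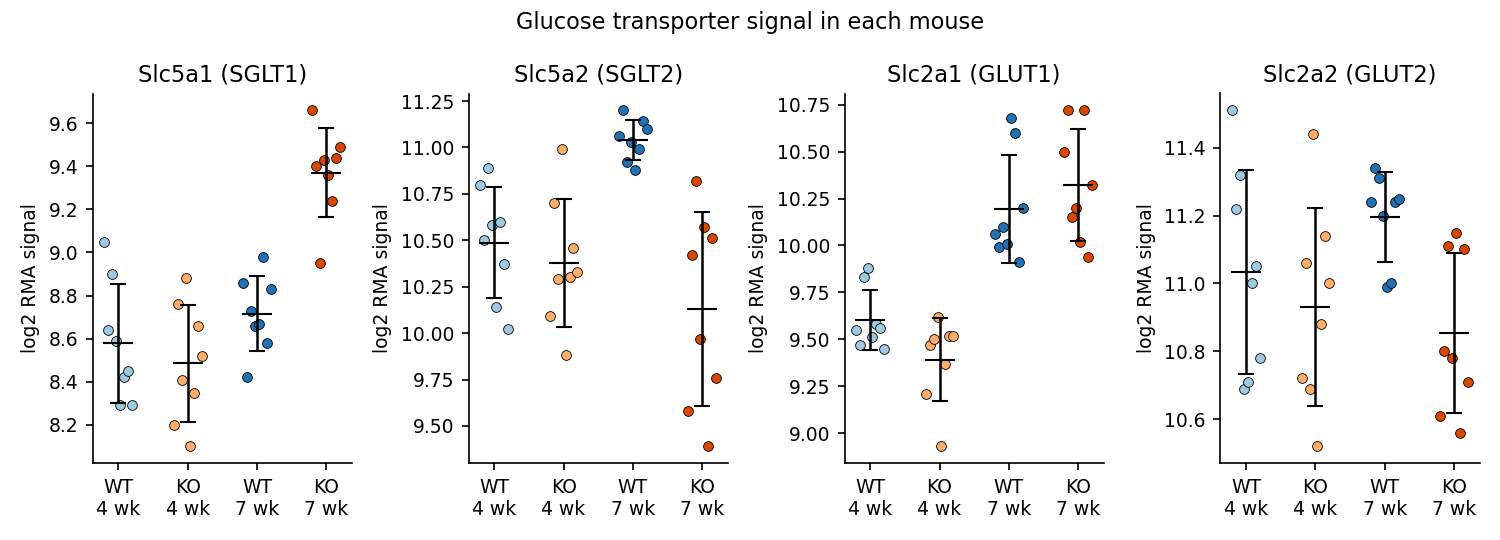
The log2 RMA signal of each transporter is plotted for every mouse (points), with the mean and SD of the 8 mice of a group (bars), each gene on its own axis. The KO mice of 7 weeks lie at 8.95 to 9.66 for Slc5a1 and at 9.39 to 10.82 for Slc5a2, against 8.42 to 8.98 and 10.88 to 11.20 in WT mice of that age.

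Slc5a2, the high-capacity apical carrier, lay in WT mice of 7 weeks between 10.88 and 11.20 with a median of 11.05, and in KO mice between 9.39 and 10.82 with a median of 10.19. Every KO mouse was below every WT mouse, and the KO mice spread far more widely, with an SD of 0.522 against 0.109. The difference was -0.91 ± 0.17 (n = 8 per group, limma adjusted p = 4.67e-05), with a 95% confidence interval from -1.25 to -0.573. In an exact permutation test, 2-sided, over all 12870 splits of 8 and 8 mice, p was 0.000155, the smallest the design can give. In RNA from whole kidney, fewer cells of a type and less RNA per cell cannot be told apart.

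Slc5a1, the apical carrier of higher affinity, went the other way. It lay in WT mice of 7 weeks between 8.42 and 8.98 (median 8.70) and in KO mice between 8.95 and 9.66 (median 9.41). The groups overlapped by a single KO mouse: 7 of 8 KO mice were above every WT mouse, and KO mouse 3, at 8.95, was just below the highest of them. The difference was 0.66 ± 0.12 (n = 8 per group, limma adjusted p = 2.72e-05), and the exact permutation p was 0.000311.

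Within a mouse, the Slc5a1 signal minus the Slc5a2 signal does not measure which transporter was more abundant, because probes differ in their response, but its change between groups shows how unequally the pair moved. It ran from -2.78 to -2.01 in WT mice of 7 weeks and from -1.87 to 0.09 in KO mice of that age. These ranges did not overlap. At 4 weeks it ran from -2.19 to -1.73 in WT and from -2.11 to -1.79 in KO mice, so that the KO range lay within the WT range.

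Slc2a2, the basolateral exit carrier of the early proximal tubule, fell by a smaller estimate than Slc5a2, and no test compared these falls. It is measured by other probes, which may differ in their response. Slc2a2 lay between 10.99 and 11.34 (median 11.24) in WT and between 10.56 and 11.15 (median 10.79) in KO mice of 7 weeks. Each KO mouse was below the WT median, and 5 of 8 were below every WT mouse. The difference was -0.34 ± 0.12 (n = 8 per group, limma adjusted p = 0.0273, exact permutation p = 0.00528). This call was close to the threshold: it was lost after quantile normalization (-0.29, adjusted p = 0.0573), and without KO mouse 1, 6 or 8 or WT mouse 2 of that age (adjusted p = 0.0614, 0.0671, 0.0532 and 0.0502).

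Slc2a1, the carrier of the late proximal tubule and of many other cells, lay between 9.91 and 10.68 (median 10.08) in WT and between 9.94 and 10.72 (median 10.26) in KO mice of 7 weeks. The groups overlapped almost entirely. The difference of 0.13 ± 0.12 had a 95% confidence interval from -0.119 to 0.372 and an adjusted p of 0.455 in limma. The other Slc2a1 feature on the array had group means of 5.24 to 5.56 and a difference of -0.13 ± 0.08 (adjusted p = 0.217 among 23521 features), and the mean of both features gave a difference of -0.0018.

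**Figure D2:**
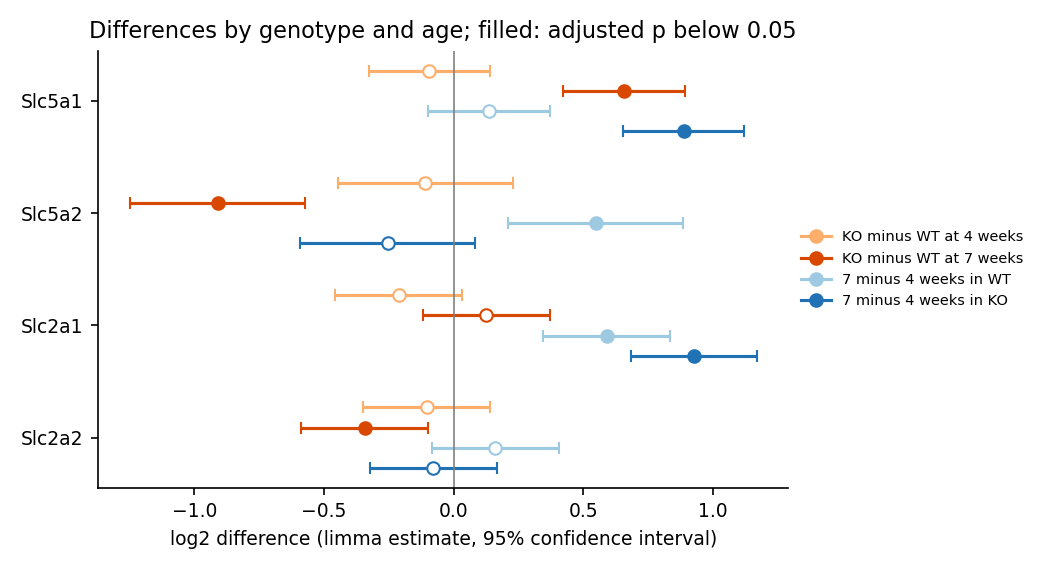
Points are limma estimates of the log2 difference for each transporter with 95% confidence intervals, by genotype at each age and by age in each genotype, filled where the adjusted p was below 0.05. Slc5a1 and Slc5a2 lie on opposite sides of 0 for KO minus WT at 7 weeks (0.66 and -0.91), and Slc2a1 is shifted to the right for age in WT (0.59) and KO mice (0.93).

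At 4 weeks no difference between KO and WT kidneys was detected for these genes. In limma 0 of the 4 passed, and 0 had an unadjusted p below 0.05, where 0.0406% of all genes passed, 0.0316% higher and 0.00902% lower. Slc5a1 lay between 8.29 and 9.05 in WT and between 8.10 and 8.88 in KO mice, a difference of -0.09 ± 0.12 with an adjusted p of 0.84 in limma. Slc5a2 lay between 10.02 and 10.89 in WT and between 9.88 and 10.99 in KO mice, a difference of -0.11 ± 0.17 (95% confidence interval from -0.446 to 0.228). Slc2a2 lay between 10.69 and 11.51 in WT and between 10.52 and 11.44 in KO mice, a difference of -0.10 ± 0.12. For all 3 the groups overlapped over most of their range. Slc2a1 lay between 9.45 and 9.88 in WT and between 8.93 and 9.62 in KO mice, and 7 of 8 KO mice were below the WT median. Its difference of -0.21 ± 0.12 had an exact permutation p of 0.0463 (n = 8 per group), the only one of the 4 genes below 0.05 in that test, and a limma adjusted p of 0.608. Without KO mice 4 and 5 the differences at 4 weeks were -0.10 for Slc5a1, -0.13 for Slc5a2, -0.17 for Slc2a1 and -0.12 for Slc2a2, and again 0 passed (limma adjusted p = 0.727 to 0.873). Without WT mouse 8 the Slc2a1 difference was -0.23, and again 0 of the 4 passed, while the count over all genes went from 9 to 21.

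The genotype effect itself differed between the ages for 2 genes: it was higher at 7 than at 4 weeks by 0.75 ± 0.16 for Slc5a1 (limma adjusted p = 0.00127) and stood at -0.80 ± 0.23 for Slc5a2 (adjusted p = 0.0152), in a test that 17% of all genes passed, 9.8% higher and 7.24% lower. For Slc2a1 (0.34 ± 0.17, adjusted p = 0.186) and Slc2a2 (-0.24 ± 0.17, adjusted p = 0.379) it did not pass.

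With age Slc2a1 rose in both genotypes, Slc5a2 rose in WT mice and Slc5a1 rose in KO mice, and the difference of the age effects between genotypes, which is the same test as above, passed for Slc5a1 and Slc5a2 and not for Slc2a1 or Slc2a2. The comparisons of age and of genotype share mice, so each gives its own values and they are not independent. From 4 to 7 weeks, WT kidneys rose in Slc5a2 (0.55 ± 0.17, 1.46-fold, limma adjusted p = 0.0112) and Slc2a1 (0.59 ± 0.12, 1.51-fold, adjusted p = 0.000321), 2 of the 4 genes against 29.5% of all genes (15.4% higher, 14.1% lower). Of the older WT mice 7 of 8 were above every younger one for Slc5a2, and all 8 were for Slc2a1. Slc5a1 (0.14 ± 0.12, adjusted p = 0.423) and Slc2a2 (0.16 ± 0.12, adjusted p = 0.356) did not pass. In KO kidneys Slc5a1 (0.89 ± 0.12, 1.85-fold, adjusted p = 1.75e-07) and Slc2a1 (0.93 ± 0.12, 1.90-fold, adjusted p = 1.8e-07) rose, with 8 of 8 older mice above every younger one for both, again 2 of 4 genes where 42.6% of all genes passed (21.4% higher, 21.3% lower). Without KO mice 4 and 5 of 4 weeks both rises were 0.89 (adjusted p = 2.28e-07 for Slc5a1 and 6.92e-07 for Slc2a1). The size of the Slc2a1 rise depended on the feature. Its other feature, of low signal, rose by 0.25 ± 0.08 in WT mice (limma adjusted p = 0.0136 among 23521 features). In KO mice that feature stood at 0.18 ± 0.08 (adjusted p = 0.0602) and did not pass. The mean of both features rose by 0.42 in WT and by 0.56 in KO mice (adjusted p = 0.00012 and 8.44e-07). Slc5a2 stood at -0.25 ± 0.17 (adjusted p = 0.225) and Slc2a2 at -0.08 ± 0.12 (adjusted p = 0.631) in the KO mice. Of 11 early proximal tubule markers 8 rose and 1 fell with age in WT mice, and 2 rose and 2 fell in KO mice; their part in the rise of Slc5a2 was not tested.

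Ordered by mean signal, Slc5a1 ran from 8.48 in KO and 8.58 in WT mice of 4 weeks through 8.72 in WT to 9.37 in KO mice of 7 weeks, and only the step to the KO mice of 7 weeks passed between neighbours. Slc5a2 ran from 10.13 in KO mice of 7 weeks through 10.38 in KO and 10.49 in WT mice of 4 weeks to 11.04 in WT mice of 7 weeks, and only the last step passed. Slc2a1 split by age, with 9.39 and 9.60 at 4 weeks and 10.19 and 10.32 at 7 weeks, and only the step between the ages passed. For Slc2a2 the order was that of Slc5a2, from 10.85 to 11.20, with no step between neighbours past the threshold and the ends of the order apart.

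Slc5a1 and Slc2a1 both rose with age in KO mice, and Slc2a1 rose in WT mice as well. They were set side by side at their promoters, as RefSeq gives them in GRCm38.p6. The 250 bases before each gene start are shown 5′ to 3′ on the plus strand, at chr5:33103969-33104218 for Slc5a1 and at chr4:119108495-119108744 for Slc2a1, and capitals mark matches on either strand to ACGTG, the core of the element bound by hypoxia-inducible factors.
Slc5a1: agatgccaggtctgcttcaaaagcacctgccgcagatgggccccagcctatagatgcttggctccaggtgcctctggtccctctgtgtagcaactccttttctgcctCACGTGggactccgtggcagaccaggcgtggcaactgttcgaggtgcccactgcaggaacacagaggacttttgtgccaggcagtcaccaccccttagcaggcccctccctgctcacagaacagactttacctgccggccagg
Slc2a1: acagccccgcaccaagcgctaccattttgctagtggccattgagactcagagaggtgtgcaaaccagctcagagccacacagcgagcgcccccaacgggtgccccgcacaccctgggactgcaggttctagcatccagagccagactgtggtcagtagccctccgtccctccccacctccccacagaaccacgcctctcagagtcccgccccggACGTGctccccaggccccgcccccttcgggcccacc
The Slc5a1 match starts 143 bases before the gene start and is read on both strands, as overlapping matches, because its 6 letters are a palindrome. The Slc2a1 match starts 36 bases before the start. Of 32851 RefSeq promoter windows of this length 16.6% hold ACGTG, so its presence in this pair is a description of the sequence. Binding was not measured. The Slc2a2 window, at chr3:28697653-28697902, held no ACGTG. None of these 3 windows held CAAAGTCCA, a core of the HNF4 element, on either strand (0.384% of all windows do). Nor did any of them hold GTTAAT, the HNF1 half-site, which 6.43% of all windows hold. Slc5a2 was not matched in the promoter table.

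Hypoxia targets were counted because Slc2a1 is a classic member of that programme. Of 10 measured targets, from a list that does not hold Slc2a1, 1 was higher and 5 were lower in KO mice at 7 weeks (15.6% and 16.7% of all genes), with a median difference of 0.00254 against -0.0615 over all genes. Car9, a carbonic anhydrase, fell by 0.81 ± 0.12 (limma adjusted p = 2.9e-06) and Bnip3, a mitochondrial protein, fell by 0.61 ± 0.09 (adjusted p = 3.66e-06). The higher gene was Pfkfb4 (0.25 ± 0.09, adjusted p = 0.0362), named after its values were seen, and its call was lost in 4 of 9 other settings. From 4 to 7 weeks in KO mice 4 targets rose and 5 fell, where 21.4% of all genes rose and 21.3% fell. With age in WT mice 1 target rose and 2 fell, where 15.4% of all genes rose and 14.1% fell.

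**Figure D3:**
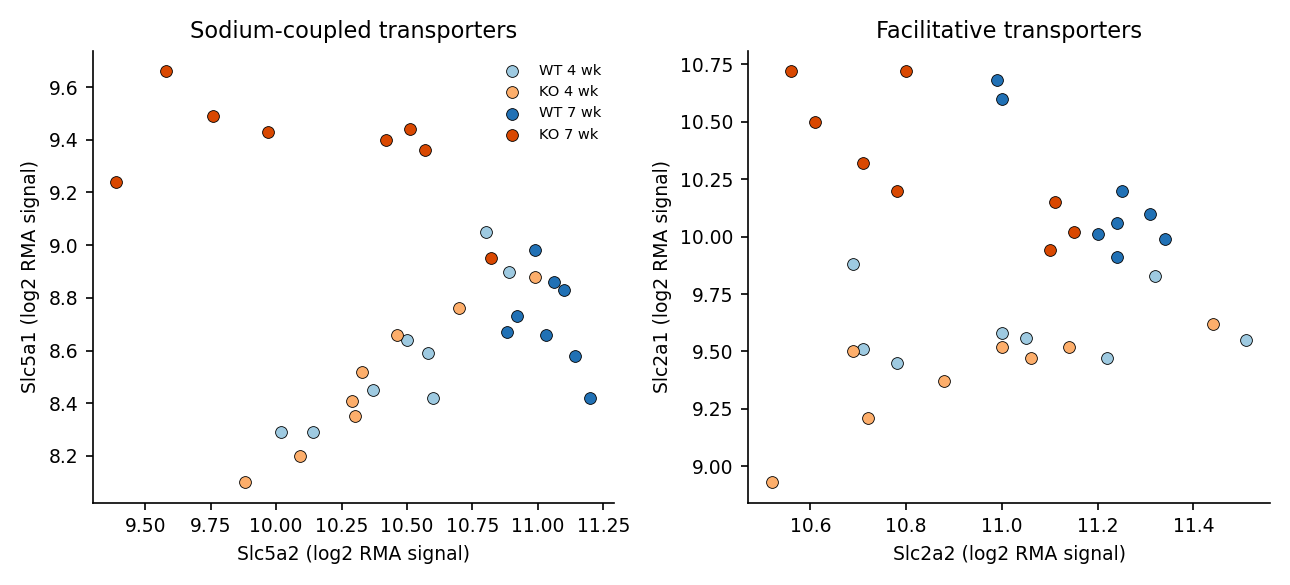
Each point is a mouse, placed by its log2 RMA signals for Slc5a2 and Slc5a1 on the left and for Slc2a2 and Slc2a1 on the right, coloured by group. On the left the mice of 4 weeks follow a rising line in both genotypes (r = 0.872 in WT, 0.968 in KO), while 7 of the 8 KO mice of 7 weeks lie above every WT mouse of that age for Slc5a1.

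Among KO mice of 4 weeks the transporters varied together by Pearson's r, and in WT mice of that age only 2 of the 6 pairs passed. The 6 pairs of genes were related in the 3 groups other than the KO mice of 7 weeks, 18 relations in all, each over 8 mice with exact permutation p values adjusted over the 18. In KO mice of 4 weeks Pearson's r was 0.803 to 0.968 over the 6 pairs (adjusted exact permutation p = 0.000893 to 0.0322). By Spearman's rho the 3 pairs with Slc2a1 did not pass (0.833 with Slc5a1, 0.786 with Slc5a2 and 0.762 with Slc2a2, adjusted exact permutation p = 0.0693, 0.0736 and 0.0736). Without the 2 farthest mice r for these pairs was 0.75, 0.614 and 0.68, and for the pairs of Slc2a2 with Slc5a1 and Slc5a2 it was 0.848 and 0.744. The closest was Slc5a1 with Slc5a2, with r = 0.968 (exact permutation p = 4.96e-05, adjusted p = 0.000893), Spearman's rho = 0.976 (exact permutation p = 0.000397, adjusted p = 0.00715) and r = 0.953 without the 2 mice farthest from the median of Slc5a1, mice 4 and 5. KO mouse 4 had the highest and KO mouse 5 the lowest value of all 4 genes in that group, the same mice that had the lowest array weights. In WT mice of 4 weeks, where Slc2a1 and Slc2a2 had r = -0.03, Slc5a1 was related to Slc5a2 (r = 0.872, exact permutation p = 0.0065, adjusted p = 0.0234, rho = 0.786, exact permutation p = 0.0279, adjusted p = 0.0736, r = 0.789 without 2 mice). Slc5a1 was related to Slc2a2 as well, less firmly without 2 mice (r = 0.848, exact permutation p = 0.00791, adjusted p = 0.0237, rho = 0.762, exact permutation p = 0.0368, adjusted p = 0.0736, then r = 0.511). In WT mice of 7 weeks Slc2a1 and Slc2a2 had r = -0.901 (exact permutation p = 0.0188, adjusted p = 0.0376) with rho = -0.548 (exact permutation p = 0.171, adjusted p = 0.22). This rested on WT mice 5 and 6, at 10.68 and 10.60 for Slc2a1 against 9.91 to 10.20 in the others, and without them r was 0.02. The remaining pairs in WT mice did not pass.

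In the KO mice of 7 weeks, whose arrays parted into 2 sets along the leading component, no relation was computed and the mice are given one by one. Mice 3, 5, 2 and 7, with component scores of 24.5 to 36.7, had Slc5a2 at 10.82, 10.57, 10.42 and 10.51. Mice 4, 8, 1 and 6, with scores of 56.4 to 62.7, had Slc5a2 at 9.97, 9.76, 9.58 and 9.39. Their Slc2a2 signals were 11.11, 11.15, 10.80 and 11.10 in the former and 10.78, 10.71, 10.61 and 10.56 in the latter mice. The sets were cut on a component of these same genes, so a parting of Slc5a2 or Slc2a2 between them is no separate result. The share of all genes that part in this way was not counted. Slc2a2 in mice 2 and 4 differed by little. The same limit holds for the means over lists of genes, which are given as a description. For early proximal tubule genes they were 11.87 to 12.09 in the former and 11.24 to 11.61 in the latter mice. For late proximal tubule genes they were 11.23 to 11.58 and 10.11 to 10.95. Injury genes had means of 8.82 to 9.40 and 9.71 to 9.92, and macrophage genes 8.24 to 8.75 and 9.36 to 9.60. The part of all these in the Slc5a2 and Slc2a2 signals was not tested. The Slc5a1 values of the sets overlapped: mouse 3 had the lowest value, 8.95, and mouse 6, with the lowest Slc5a2, had the next lowest, 9.24. Slc2a1 was 10.15, 10.02, 10.72 and 9.94 in mice 3, 5, 2 and 7, and 10.20, 10.32, 10.50 and 10.72 in mice 4, 8, 1 and 6. Mouse 2 thus shared the highest value with mouse 6 of the other set, while mice 3, 5 and 7 had the lowest values.

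**Figure D4:**
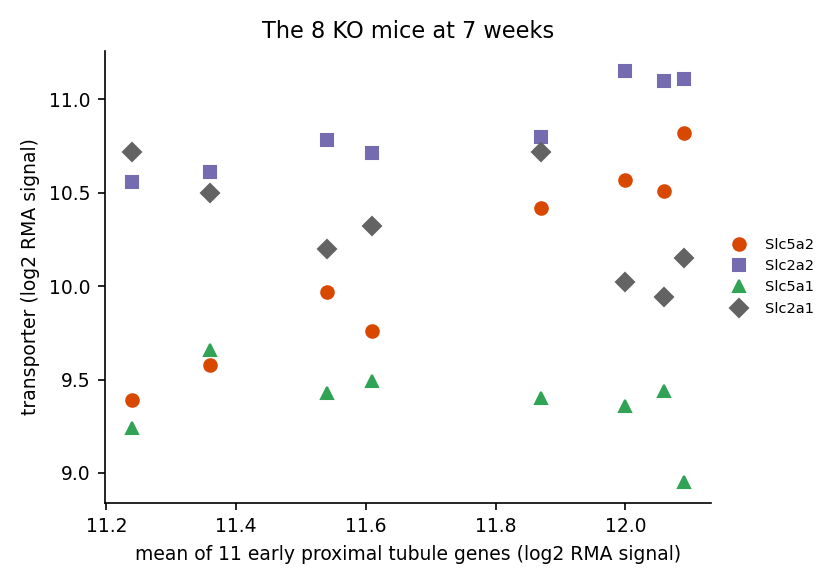
For the 8 KO mice of 7 weeks the log2 RMA signal of each transporter is plotted against the mouse's mean over 11 early proximal tubule genes, a list without the 4 carriers themselves. Slc5a2 runs from 9.39 in the mouse with the lowest mean (11.24) to 10.82 in the mouse with the highest (12.09), and Slc5a1 is lowest in that last mouse, at 8.95.

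Markers of the cells that carry the transporters, and of cells that enter a diseased kidney, were counted at 7 weeks against the 16.7% of all genes that were lower and the 15.6% that were higher. Of 11 early proximal tubule genes 8 fell and 0 rose (median -0.43 against -0.06 over all genes), among them the amino acid transporter Slc6a19 (-1.07 ± 0.20, limma adjusted p = 6.54e-05) and the lactate cotransporter Slc5a12 (-0.47 ± 0.10, adjusted p = 0.000354). Of 7 late proximal tubule genes 6 fell and 0 rose (median -0.76), among them the S3 amino acid transporter Slc7a13 (-1.39 ± 0.26, adjusted p = 7.25e-05) and the anion transporter Slc22a7 (-1.87 ± 0.36, adjusted p = 9.77e-05). The early list averaged 12.07 to 12.25 per WT mouse and 11.24 to 12.09 per KO mouse, and the late list 11.66 to 12.06 and 10.11 to 11.58. Slc5a1, which is carried by that late segment but is not among its 7 listed markers, rose while 6 of those markers fell. All 6 macrophage genes rose (per-mouse mean 6.67 to 6.99 in WT, 8.24 to 9.60 in KO), as did all 5 fibroblast and pericyte genes (7.36 to 7.66 and 8.46 to 9.27) and all 6 tubular injury genes (6.22 to 6.53 and 8.82 to 9.92). Of the thick ascending limb genes 1 of 4 rose and of the collecting duct and intercalated cell genes 2 of 7 fell, both near the share over all genes. Of the endothelial genes 3 of 6 fell, and of the erythroid genes only Epb42 was measured (0.54 ± 0.09, adjusted p = 2.52e-05). At 4 weeks 1 of these markers passed, the injury gene Lcn2 (1.27 ± 0.25, limma adjusted p = 0.0342), named after its values were seen, and its call was lost in 3 of 10 other settings. The part of any of these cells in the transporter signals was not tested.

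The other sugar carriers of both families were mixed at 7 weeks, with 6 of 14 lower and 2 higher in KO mice, where 16.7% of all genes were lower and 15.6% higher. Among the 10 other SLC2 genes 5 fell and 2 rose (median -0.22). The fructose carrier Slc2a5 fell (-0.78 ± 0.15, limma adjusted p = 9.92e-05), after a rise with age in WT kidneys of 0.88 (adjusted p = 3.91e-05). The insulin-responsive carrier Slc2a4 (-0.78 ± 0.09, adjusted p = 2.97e-08) and Slc2a12 (-0.78 ± 0.11, adjusted p = 4.69e-07) fell by as much, and the urate carrier Slc2a9 (-0.30 ± 0.06) and Slc2a8 (-0.23 ± 0.07) by less. The carriers that rose were Slc2a6, a lysosomal member (0.64 ± 0.10, adjusted p = 2.65e-06), and Slc2a3, the high-affinity GLUT3 of neurons and leukocytes (0.40 ± 0.11, adjusted p = 0.00366). Both had low signals, with means in WT and KO mice of 5.58 and 6.22 for Slc2a6 and 4.74 and 5.14 for Slc2a3. The Slc2a3 means lay below every array median (5.606 to 5.793). Slc2a7, Slc2a10 and Slc2a13, a myo-inositol carrier, stood at -0.03, -0.01 and -0.22 and did not pass, although Slc2a13 passed in 2 of 9 other settings. Of 4 measured relatives of SLC5, Slc5a11 fell (-0.37 ± 0.12, adjusted p = 0.0147), and Slc5a9, which carries mannose, stood at -0.30 ± 0.12 (adjusted p = 0.0659) and passed in 5 of 9 other settings. Slc5a4a and Slc5a4b stood at 0.06 and -0.20 and did not pass, although Slc5a4b passed in 2 of 8 other settings. The sign of Slc5a4a turned on the array median of the genes tested (-0.06).

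**Figure D5:**
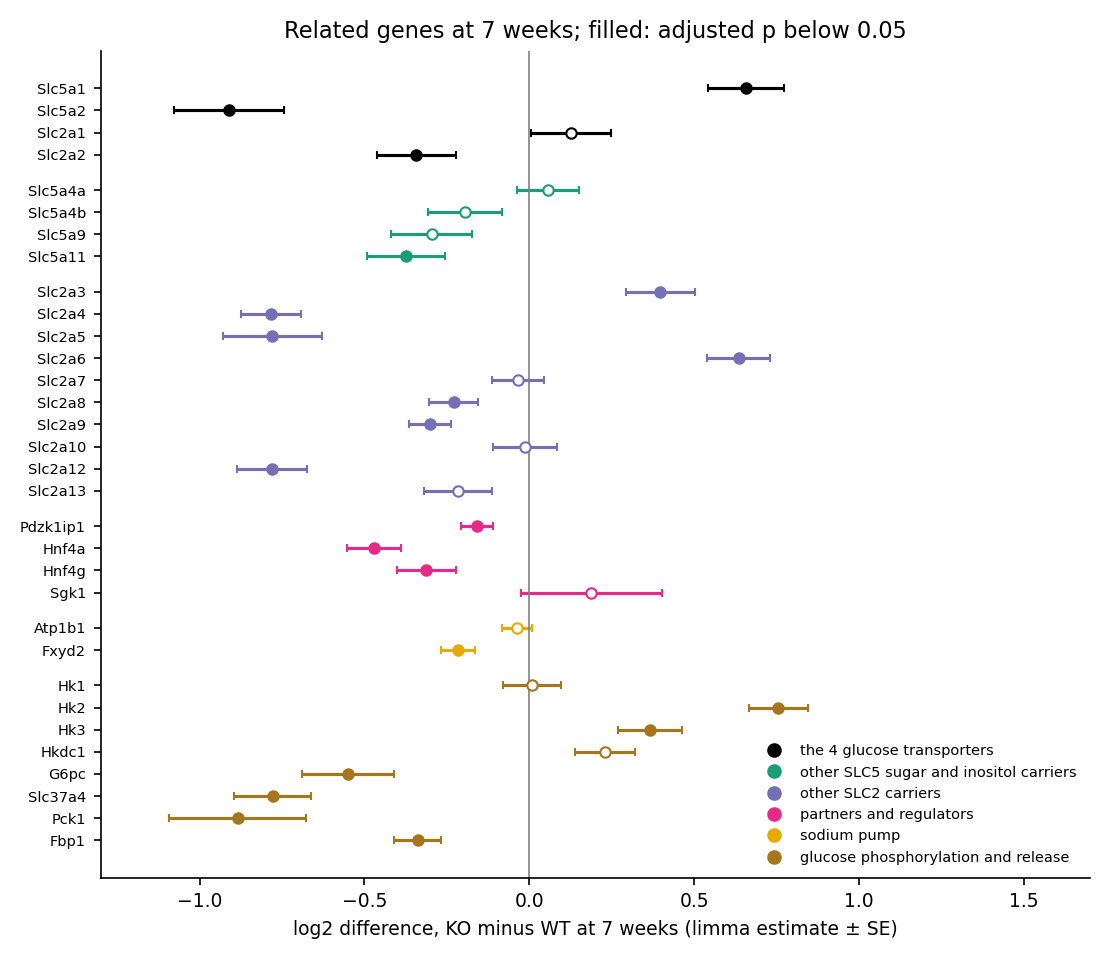
Points are limma estimates of the log2 difference between KO and WT mice of 7 weeks with their SE, filled where the adjusted p was below 0.05, for the 4 transporters, other carriers of both families, partners and regulators, the sodium pump, and enzymes of glucose phosphorylation and release. Slc5a1 (0.66) is the only filled point to the right of 0 among the SLC5 genes drawn, and Slc2a6 and Slc2a3 are those among the SLC2 genes.

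Partners and regulators of the apical step were lower as far as they were measured. Pdzk1ip1, the small membrane protein MAP17 that SGLT2 needs for activity, fell by 0.16 ± 0.05 (limma adjusted p = 0.0097), a call that was lost after quantile normalization (-0.11, adjusted p = 0.0787). Hnf4a, a transcription factor of the proximal tubule, fell by 0.47 ± 0.08 (adjusted p = 2.66e-05) and its relative Hnf4g by 0.31 ± 0.09 (adjusted p = 0.00681). The kinase Sgk1, which promotes sodium transport, stood at 0.19 ± 0.21 and did not pass. Thus 3 of 4 measured genes fell, where 16.7% of all genes were lower and 15.6% higher. Of the sodium pump, Fxyd2, its regulatory subunit, fell by 0.22 ± 0.05 (adjusted p = 0.00132), and the β subunit Atp1b1 stood at -0.04 ± 0.05.

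Of 8 measured genes of glucose phosphorylation and release 4 fell and 2 rose at 7 weeks, where 16.7% of all genes were lower and 15.6% higher. The 4 genes of glucose synthesis and release fell: Pck1 (-0.88 ± 0.21, limma adjusted p = 0.00109), Fbp1 (-0.34 ± 0.07, adjusted p = 0.000306), G6pc (-0.55 ± 0.14, adjusted p = 0.00235) and the glucose-6-phosphate transporter Slc37a4 (-0.78 ± 0.12, adjusted p = 2.64e-06). Of 4 hexokinases, which trap glucose by phosphorylation, Hk2 (0.76 ± 0.09, adjusted p = 3.61e-08) and Hk3 (0.37 ± 0.10, adjusted p = 0.00339) rose, while Hk1 (0.01 ± 0.09) and Hkdc1 (0.23 ± 0.09, adjusted p = 0.051) did not pass. The signals of Hk2 and Hk3 were low, with means in WT and KO mice of 5.61 and 6.37 for Hk2 and 5.15 and 5.52 for Hk3. The Hk3 means lay below every array median. Macrophage genes rose in the same kidneys, and the part of such cells in the Hk2 and Hk3 signals was not tested. At 4 weeks 0 of the 28 measured genes in these lists of carriers, partners, pump and enzymes passed in limma, with 1 of them, in the SLC2 list, below 0.05 before adjustment.

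The genes most like each transporter were ranked over all 22180 genes by Pearson's r across the 32 mice, as a description, since all genes of a mouse share its array. For deviations from the group means, Slc5a2 was most like Kl, the klotho gene (r = 0.945), then Lrpprc and Slc22a18 (0.932 each), and Kl also led over the log2 values themselves (0.973). Slc2a2 was most like Car12, Mfsd1 and Lipa (0.92, 0.918 and 0.914). Slc5a1 was most like the actin-severing gelsolin gene, Gsn (0.841), Cand1 (0.84) and Arnt (0.821), and Gsn also led over the log2 values (0.952). Slc2a1 was most like Slco4a1, Bcam and Paqr5 (0.835, 0.82 and 0.814). Of the transporters themselves, r of the deviations was 0.809 for Slc5a2 with Slc2a2 and -0.06 for Slc5a2 with Slc2a1. The latter value pools unlike groups. For that pair r was 0.821 in KO and 0.604 in WT mice of 4 weeks, and -0.682 in WT mice of 7 weeks. Only the first of these passed by Pearson's r. Both pooled values also include the KO mice of 7 weeks, which parted into 2 sets.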

How the data were processed

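RNA of 32 kidneys was measured on arrays. The values are log2 signals per gene-level feature that the authors deposited, made with RMA in Affymetrix Expression Console per the submitters' processing notes, version not stated. Scanner files were not used here. Of 41345 features, 23521 named 1 symbol, 1814 several and 16010 no gene in the annotation used here. The feature with the highest mean was kept for each symbol, which gave 22180 genes, with no filter on low values. Limma 3.58.1 in R 4.3.3 fitted a mean for each of the 4 groups (28 residual degrees of freedom) and tested 5 contrasts, with Benjamini-Hochberg adjustment over all genes and a threshold of 0.05. The model was tested on simulated data. Single genes were also compared by exact permutation (scipy 1.17.1). Named genes were the 4 transporters, Col4a3, measured members of 5 lists of carriers, partners, pump and enzymes, and up to 3 members of other lists with the smallest p, with the 3 most alike genes. Of 103 genes in 15 lists, 91 were measured, and the others were not analysed here. The members and lists were chosen with earlier results of these data known. Promoters came from a RefSeq table. Same-numbered mice of different groups are different animals. Alternatives were other samples, scalings, feature rules, filters, variance models, array weights, a replicate block and leaving out each mouse.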

Additional observations from a re-analysis of the deposited data

Results flagged for a closer look

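The difference between KO and WT mice was not the same at the 2 ages for 19 of the 39 genes looked at, by limma's interaction test with Benjamini-Hochberg adjustment. Over all genes 17% passed that test, and the 39 genes include markers named for the smallest p at 7 weeks, among them Slc6a19, Slc5a12, Slc7a13, Slc22a7, Car9 and Bnip3, so the count is no measure of the lists. As the effect at 7 minus the effect at 4 weeks, it was 0.75 for Slc5a1 (adjusted p = 0.00127) and -0.801 for Slc5a2 (0.0152). Among the other carriers it was 0.439 for Slc2a3 (0.0405), 0.604 for Slc2a6 (0.00174), -0.658 for Slc2a4 (0.000462) and -0.68 for Slc2a12 (0.00149). It was -0.2 for Pdzk1ip1 (0.0374), -0.382 for Hnf4a (0.0204) and -0.219 for Fxyd2 (0.0351). The call was lost in 2 of 8 other settings for Slc2a3, in 3 of 9 for Pdzk1ip1, and in 1 of 9 each for Hnf4a and Fxyd2. Among the enzymes it was 0.607 for Hk2 (0.000833), -0.693 for Slc37a4 (0.00318) and -0.358 for Fbp1 (0.0116). Proximal tubule markers gave -0.912 for Slc6a19 (0.0225), -0.448 for Slc5a12 (0.0239), -1.26 for Slc7a13 (0.0159) and -1.78 for Slc22a7 (0.0129). The value was -0.822 for Car9 (0.000936), -0.522 for Bnip3 (0.00541) and -0.652 for Col4a3 (0.00907).

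A mouse stood far from the other 7 of its group in 13 of the 156 sets of 8 values examined, where chance gives about 1 in 20. None of the 13 was a value of Slc5a1, Slc5a2, Slc2a1 or Slc2a2. In KO mice of 4 weeks, mouse 4 was low for the late proximal tubule genes Slc7a13, at 11.05 against 12.46 to 12.75, and Slc22a7, at 7.112 against 8.127 to 8.902, and it was the mouse with the highest Slc5a1, Slc5a2, Slc2a1 and Slc2a2 of its group. In KO mice of 7 weeks, mouse 6, the one with the lowest Slc5a2, had the lowest Pck1, 10.53 against 11.67 to 12.52, and the highest Slc2a9, 6.66 against 6.322 to 6.475. Also in that group, mouse 2 was low for Slc5a4a (4.834), mouse 5 for Slc2a3 (4.587) and mouse 7 for Sgk1 (8.676). In WT mice of 7 weeks mouse 6 was high for Slc5a9 (8.178) and mouse 5 for Fxyd2 (11.25). In WT mice of 4 weeks mouse 6 was low for Slc5a4b (4.714) and mouse 1 for Slc7a13 (12.12), while mouse 8 was high for Hk3 (5.929) and mouse 5 for Bnip3 (10.13).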

How the results depend on the processing

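Slc5a1 and Slc5a2 kept their direction and their side of the threshold in each of the 5 comparisons under every alternative run, as did Slc2a1 and Slc2a2 apart from the cases given next. Slc2a2 at 7 weeks was -0.29 (adjusted p = 0.0573) after quantile normalization and ran from -0.38 to -0.30 with 1 mouse left out, with the call lost in 4 of 16 cases. Slc2a1 at 7 weeks turned to -0.0018 with the mean of its features, and Slc5a4a to -0.057 on the median of the genes tested. That centring and the removal of KO mice 4 and 5 of 4 weeks were chosen after seeing the data. The count of all genes at 4 weeks was 9, against 1 with only the 2 groups or without those mice, 17 above the median level, 5 with array weights, and 3 to 24 with 1 mouse left out. At 7 weeks it was 7167, and 10892 on the median of the genes tested. The share of higher genes went from 57.5% to 33.2% for the difference of the effects and from 50.1% to 35.1% for age in KO mice on that median, and for age from 52.1% to 72.7% in WT and to 65% in KO mice on the median of all features. With the replicate number as a block, Slc5a1 was 0.66 and Slc5a2 -0.91 at 7 weeks, and no call among the 4 genes changed. The labels state no pairing by number. Of 48 same-numbered pairs 9 had r over 0.1, with a median of 0.03, against a median of -0.003 for different numbers. These values cannot exclude a pairing, because a link between mice need not show across all genes.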
